A study of Mus musculus with 6 samples.

Results

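The genes described here are 39 mouse interferon-stimulated genes, sensors and regulators, taken by symbol and sorted into 4 roles: GTPases, sensors and double-stranded RNA enzymes, regulators, and antiviral effectors with other induced genes. Of the 39, 38 had at least 1 probe with a single gene symbol, 77 probes in all out of 45281 on the array. Ifi44 was not analysed here. Of the 38, 27 passed the detection filter and 11 did not. A probe was kept if its detection p, the chance of such a signal from background, was under 0.01 on 3 or more of the 6 arrays. Where several probes of a gene were kept, the brightest on average stands for it.

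Expression was measured on Illumina bead arrays in mouse embryonic stem (ES) cells, as a brightness per probe. The 3 shEp400 samples came from cells transfected with a pHYPER vector for a short hairpin RNA against Ep400, and the 3 control samples from cells labelled as control transfections, whose insert the labels do not name. Ep400 encodes a chromatin-remodelling ATPase found in the Tip60-p400 complex. Cells of both groups grew in 15% serum with LIF on a layer of mouse embryonic fibroblasts (feeder cells) inactivated with mitomycin C, and both were electroporated and then selected with puromycin for 48 h from 24 h after transfection. The labels name no strain, clone or separate culture, so p-values reflect only how these samples vary, and that variation may be technical. All values below are normalized log2 signals unless given as folds, arrays are named by group and replicate number, and a gene was called higher or lower where its limma adjusted p was under 0.05 over all 9736 genes tested.

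Type I interferons bind the receptor made of Ifnar1 and Ifnar2, and interferon gamma binds Ifngr1 and Ifngr2. Jak kinases then phosphorylate STAT proteins. After type I interferon, a complex that holds Stat2 and Irf9 binds the interferon-stimulated response element (ISRE), and after interferon gamma, STAT dimers bind the gamma-activated sequence (GAS). The system is started by sensors of foreign or misplaced nucleic acids, such as Ddx58 (RIG-I) and Ifih1 (MDA5) for double-stranded RNA, through Irf3 and Irf7. Pluripotent stem cells are known for a weak interferon response, while fibroblasts respond fully.

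The array probes carry no sequence in the files used, so the sequences shown are promoter stretches in which the ISRE letters stand, from the RefSeq promoter table (build GRCm38.p6). The motif searched was GAAANNGAAA on both strands, so TTTCNNTTTC in the printed strand is its reverse complement. Promoters covered 250 bases before and 50 bases from the start of the gene. The set shows 6 genes that were called higher, Ifitm2, which was called lower, and Ifit1 and Oas1a, which were not detected. Capitals mark the ISRE letters, each stretch is 100 bases long, and overlapping matches run together.
Gbp2 (chr3:142620559-142620658, + strand): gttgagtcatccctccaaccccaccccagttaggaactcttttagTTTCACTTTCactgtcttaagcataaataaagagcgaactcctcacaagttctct
Irgm1 (chr11:48871393-48871492, - strand): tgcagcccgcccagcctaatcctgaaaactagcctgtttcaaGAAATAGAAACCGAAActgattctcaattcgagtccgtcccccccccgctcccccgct
Isg15 (chr4:156200836-156200935, - strand): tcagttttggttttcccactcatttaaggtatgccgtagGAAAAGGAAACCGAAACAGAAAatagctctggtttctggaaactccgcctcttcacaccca
Ifit3 (chr19:34583345-34583444, + strand): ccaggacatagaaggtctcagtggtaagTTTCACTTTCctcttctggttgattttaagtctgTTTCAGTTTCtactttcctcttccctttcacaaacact
Rsad2 (chr12:26456518-26456617, - strand): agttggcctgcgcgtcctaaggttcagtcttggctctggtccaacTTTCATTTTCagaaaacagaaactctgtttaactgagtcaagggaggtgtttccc
Phf11a (chr14:59297497-59297596, - strand): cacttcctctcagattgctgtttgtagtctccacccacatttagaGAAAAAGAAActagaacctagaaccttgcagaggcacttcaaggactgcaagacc
Ifitm2 (chr7:140955953-140956052, - strand): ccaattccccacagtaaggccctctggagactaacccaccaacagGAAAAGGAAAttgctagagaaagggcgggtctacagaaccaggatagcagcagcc
Ifit1 (chr19:34640749-34640848, + strand): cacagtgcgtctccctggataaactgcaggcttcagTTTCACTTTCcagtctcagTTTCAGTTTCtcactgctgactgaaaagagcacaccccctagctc
Oas1a (chr5:120907488-120907587, - strand): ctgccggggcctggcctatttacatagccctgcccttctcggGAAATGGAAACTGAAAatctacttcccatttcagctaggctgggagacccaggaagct

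The table held promoters of 31 members, 39 promoters in all. ISRE letters stood in 19 of the 39 (48.7%), each of a different gene, against 3.44% of all 32851 promoters in the table. By gene, they stood in 9 of the 13 called higher that had a promoter, in 5 of 10 not called, in 4 of 7 not measured, and in Ifitm2. The match in Isg15 was a run of 3 overlapping copies beginning 78 bases before the start, and Ifit1, which was not detected, had 2 copies beginning 104 bases before it. The GAS letters TTCNNNGAA, which read the same on both strands, stood in 12 of the 39 (30.8%), against 8.30% of all promoters. In Bst2 and Ifitm3 the GAS match overlapped an ISRE match. A match of letters is a description and shows no binding.

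Of the 27 measured members, 15 were called higher in shEp400 cells, 1 was called lower and 11 were not called. Over all tested genes 20.6% were called higher and 23.1% lower, 43.7% in all. All shEp400 arrays lay above all control arrays for 15 members (25.1% of all tested genes) and below them for 1 (30.3%). The median log2 change was 0.64 over the 27 members and -0.065 over all tested genes. The members' median depended on the background step: it was 0.42 with normexp without detection p-values and 0.30 both with uncorrected values and with the deposited matrix. The measured members exclude those that stayed dark, and Rsad2 passed the filter only through its shEp400 arrays, so these counts do not speak for all 39. Among the 20 members whose probe was detected on all 6 arrays, 8 were called higher and 1 lower, where 18.9% and 24.9% of all such genes were. The fitted rise was at least 2-fold for 10 of the members called higher, and for 11.2% of all tested genes. For 1 of the 10, Rsad2, which was detected on no control array, only a bound of 1.47-fold is supported, on background-corrected values. With cyclic loess in place of quantile normalization 17 members were called higher and 1 lower, and with 75th percentile scaling 12 and 2.

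**Figure D1:**
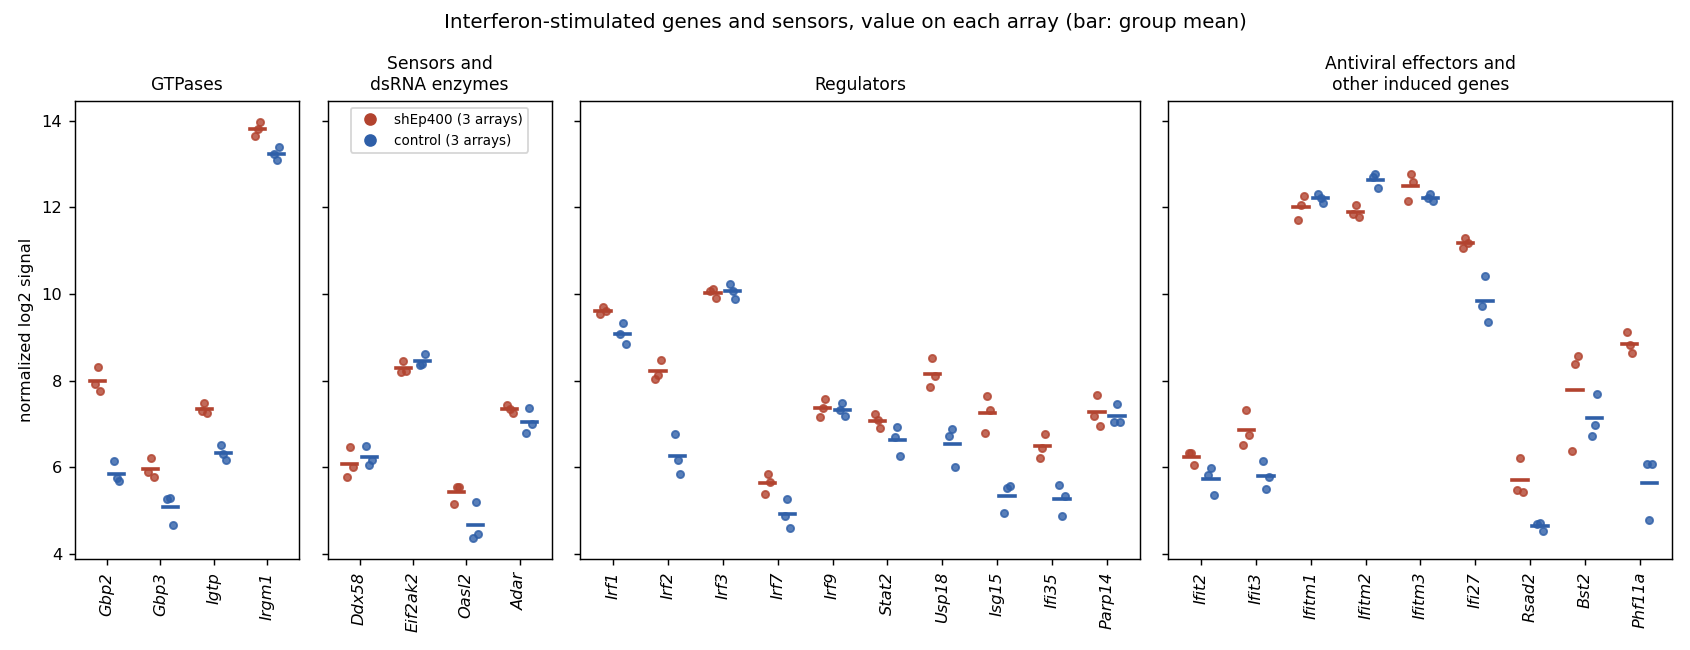
Normalized log2 signal (y axis) of the 27 measured members on each of the 3 shEp400 arrays (red, left of each pair) and the 3 control arrays (blue), in 4 panels by role, with a bar at each group's mean. The y axis compares arrays within a gene and not genes with each other. Phf11a lies between 8.64 and 9.11 on the shEp400 arrays, above its control arrays, while both groups of Irf3 lie between 9.89 and 10.23.

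Ep400 itself, the check of the labels, averaged 9.04 ± 0.14 in shEp400 cells and 9.62 ± 0.08 in control cells (SD, n = 3 each; log2 change -0.58, SE 0.16, limma adjusted p = 0.0159). Its fall missed the threshold with cyclic loess (-0.42, adjusted p = 0.0631), and likewise when control array 1 was left out (-0.53, adjusted p = 0.0599). Detected probes numbered 16152 to 17337 on the shEp400 arrays and 15441 to 16096 on the control arrays. All 6 arrays lay on 1 slide, each group in a block of its own, and an effect of position cannot be told apart from that of the hairpin. Markers of feeder fibroblasts moved with the group: 22 of 25 measured were higher and 0 lower, and their summed linear signal was 38890 to 58012 on shEp400 arrays and 9339 to 10639 on control arrays. The feeder markers Col3a1, Col5a2, Postn, Fap, Cdh11 and S100a4 were not detected. Of 10 ES cell markers 6 were lower and 0 higher, with sums of 45019 to 60281 on shEp400 arrays and 64790 to 68110 on control arrays. The part of the feeder cells in the changes below was not tested. In bulk RNA, the cells that expressed these feeder and ES cell markers are not identified. More or fewer cells of a type cannot be told apart there from more or less RNA per cell.

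Of 11 leukocyte markers with a probe, Ptprc, Itgam, Adgre1, Spi1 and Tyrobp were not detected, and of the 6 measured 0 were higher and 1, Cd3e, was lower. Their sums were 2839 to 5306 on shEp400 arrays and 3962 to 4104 on control arrays. Of these 6, Cd14, Lyz2 and Fcer1g had log2 changes of 1.35, 1.35 and 0.99, and Laptm5, Csf1r and Cd3e of -0.28, -0.34 and -0.95. All 6 had their highest shEp400 value on array 2. The macrophage gene Lyz2, which varied most, had 5.44, 9.55 and 7.47 on shEp400 arrays 1, 2 and 3, against 5.27, 7.40 and 5.74 on control arrays 1, 2 and 3. It was highest on array 2 of each group, as were Cd14 and Fcer1g, and was not called (log2 change 1.35, SE 0.87, adjusted p = 0.233). Of 4 measured endothelial markers 0 were higher and 1 was lower, and Cdh5, Kdr and Tie1 were not detected. Of the 15 members called higher, 10 had their highest shEp400 value on array 2, 4 on array 3 and 1 on array 1, and the part of leukocyte RNA in this was not tested.

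The interferon-inducible GTPases rose in every case that was measured. These proteins act on the membranes around intracellular pathogens, as the guanylate-binding proteins (Gbp) and the immunity-related GTPases (Igtp, Irgm1 and Iigp1), or on viral particles and nucleoproteins, as Mx1 and Mx2. Of 8 listed, 4 were measured, and all 4 (Gbp2, Gbp3, Igtp and Irgm1) were called higher, where 20.6% of all tested genes were. Their median difference from the control mean was 0.89, 1.14 and 0.83 on shEp400 arrays 1, 2 and 3, beside feeder marker medians of 1.58, 1.93 and 2.11.

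Gbp2 had 7.91, 8.32 and 7.75 on the shEp400 arrays, against 6.13, 5.74 and 5.67 on the control arrays. All shEp400 values lay above all control values, a 4.43-fold rise (log2 change 2.15, SE 0.21, adjusted p = 8.85e-05). Its other probes, of 3 in all, were above background on no array. Gbp3, its chromosomal neighbour, had 5.88, 6.20 and 5.76 in shEp400 cells, against 5.25, 5.28 and 4.67 in control cells. The groups were separate and the rise was 1.84-fold (log2 change 0.88, SE 0.21, adjusted p = 0.00815), which failed the test when control array 1 or 2 was dropped. The second tested Gbp3 probe rose 2.07-fold, with groups that overlapped through a control value of 5.72. The Gbp genes are close copies, so a probe may read more than 1 of them.

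Igtp had 7.29, 7.47 and 7.25 on the shEp400 arrays, against 6.51, 6.29 and 6.17 on the control arrays. The 3 shEp400 values were tight and all above control, a 2.02-fold rise (log2 change 1.01, SE 0.17, adjusted p = 0.00118). Irgm1, a regulator of the other immunity-related GTPases, had 3 probes, of which 2 were tested. The probe that stands for the gene had 13.65, 13.82 and 13.98 in shEp400 cells, against 13.23, 13.10 and 13.41 in control cells. That was a 1.49-fold rise (log2 change 0.57, SE 0.17, adjusted p = 0.022), which failed the test under 75th percentile scaling (0.21, adjusted p = 0.394) and when control array 1 or 2, or shEp400 array 2 or 3, was dropped. The other had 7.66, 8.71 and 8.35, against 5.73, 7.22 and 6.27 in control cells, a 3.55-fold rise over probes (log2 change 1.83, SE 0.37, adjusted p = 0.00309). On both probes, which share a transcript accession, all shEp400 values lay above control, and the sizes of the rises were not tested against each other.

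The remaining GTPases did not pass the filter and were not tested. The 4 probes of Iigp1 were detected on no array (lowest detection p 0.0205). Gbp7 was detected on 1 control array, and Mx1 and Mx2 on 1 shEp400 array each. Mx2 had 4.86, 5.18 and 4.91 in shEp400 cells, against 4.78, 4.38 and 4.70 in control cells. These values did not overlap, but only 1 of them was detected, so the separation is not read as a rise. At this signal, undetected probes of Iigp1 also separated, in both directions. Mx1 had 5.07 on the array that detected it, and Gbp7 had 5.24. The lowest detected probe of each array lay between 4.96 and 5.20.

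Of the 7 sensors and double-stranded RNA enzymes listed, 4 were measured, 1 of them was called higher and 0 lower. That share of 25% called higher is near the 20.6% over all tested genes. The called gene, Oasl2, belongs to the oligoadenylate synthetase family, whose products activate the nuclease RNase L. It had 5.15, 5.54 and 5.55 in shEp400 cells, against 4.35, 5.20 and 4.45 in control cells. The groups overlapped through control array 2, its probe was detected on 1 of 3 control arrays, and the rise was 1.67-fold (log2 change 0.74, SE 0.24, adjusted p = 0.0304). That call was lost in 9 of the 16 alternatives that tested it, among them no background correction (0.25) and those that dropped control array 1 or 3, or shEp400 array 2 or 3.

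Ddx58, the RIG-I sensor of viral RNA ends, had 5.78, 6.45 and 5.99 on the shEp400 arrays, against 6.49, 6.05 and 6.16 on the control arrays (log2 change -0.16, SE 0.21, adjusted p = 0.564). Eif2ak2, the kinase PKR that halts translation on double-stranded RNA, had 8.20, 8.45 and 8.21, against 8.36, 8.38 and 8.61 in control cells (log2 change -0.16, SE 0.17, adjusted p = 0.448). The groups overlapped in both genes. Adar, which edits adenosines in double-stranded RNA and so keeps the cell's own RNA from the sensors, had 4 tested probes. The 1 that stands for the gene was not called (log2 change 0.29, SE 0.19, adjusted p = 0.23). A second rose, with 7.19, 7.37 and 7.69 in shEp400 cells, against 6.46, 6.68 and 7.03 in control cells (log2 change 0.69, SE 0.21, adjusted p = 0.0226 over probes). The other two both had a log2 change of -0.33 and were not called. Ifih1, Ifi204 and Oas1a were above background on no array. The role's median differences were 0.067, 0.25 and -0.021 on shEp400 arrays 1, 2 and 3, beside the feeder medians of 1.58, 1.93 and 2.11.

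**Figure D2:**
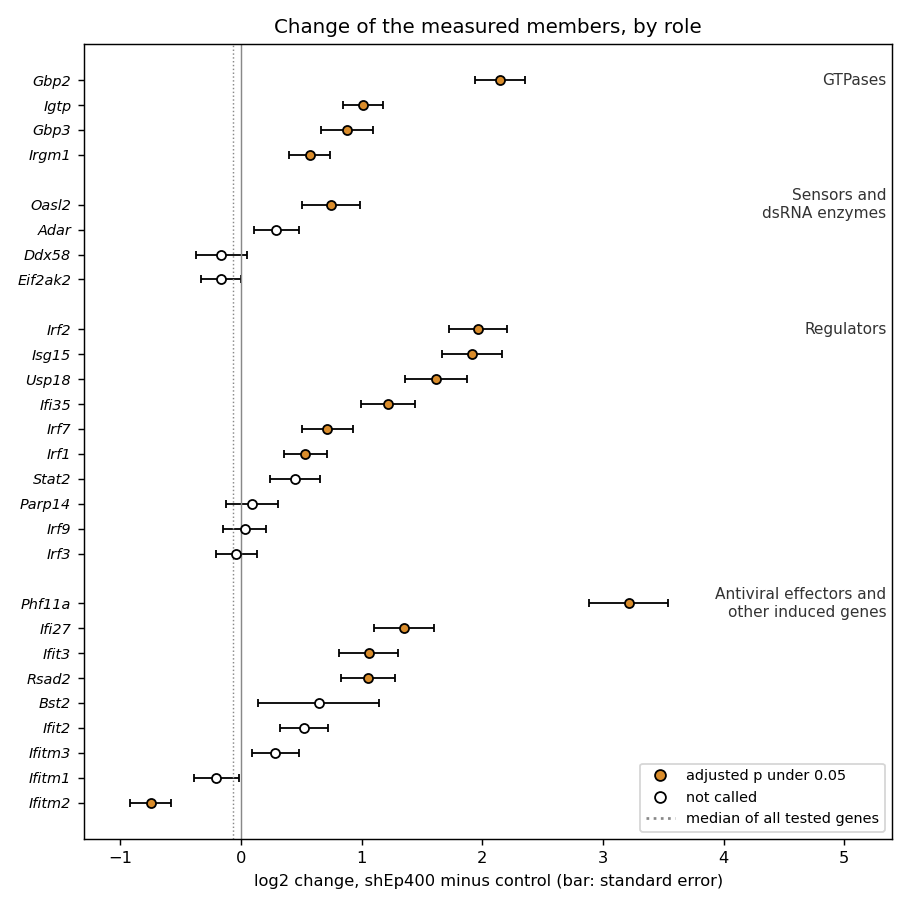
Log2 change (x axis, shEp400 minus control, bar for the standard error) of the 27 measured members, grouped by role and sorted within it. Filled points passed the test at an adjusted p under 0.05. The 4 GTPases are filled, 1 of 4 sensors and enzymes is, and Ifitm2 at -0.75 is the only filled point left of 0.

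The regulators divided into genes that rose and genes that did not pass the test. All 10 listed were measured, 6 were called higher, 0 lower and 4 were not called, where 20.6% of all tested genes were called higher and 23.1% lower. The role's median differences were 0.53, 0.77 and 0.64 on shEp400 arrays 1, 2 and 3, beside feeder medians of 1.58, 1.93 and 2.11. Without the genes whose probe missed an array, 3 of 7 rose in the same test, where 18.9% of all such genes did.

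Irf2, a factor that binds the same sites as Irf1 and is known mainly as its antagonist, had 8.04, 8.14 and 8.48 in shEp400 cells, against 6.76, 6.17 and 5.84 in control cells. The groups were far apart and the rise was 3.90-fold (log2 change 1.96, SE 0.24, adjusted p = 0.000237). Irf1, an activator first induced by interferon gamma, had 9.54, 9.70 and 9.61, against 9.07, 9.34 and 8.84 in control cells. The groups were separate and the rise was 1.45-fold (log2 change 0.53, SE 0.18, adjusted p = 0.0342). The rise failed the test under 75th percentile scaling, as the mean of the detected probes (0.19, adjusted p = 0.378) and when control array 1 or 3, or shEp400 array 2 or 3, was dropped. The other 3 tested Irf1 probes had log2 changes of 0.10, 0.21 and -0.11 and were not called.

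Irf7, the factor that amplifies type I interferon transcription, had 5.38, 5.84 and 5.66 on the shEp400 arrays, against 4.87, 5.26 and 4.60 on the control arrays. It was detected on 3 shEp400 arrays and 1 control array, and rose 1.64-fold (log2 change 0.72, SE 0.21, adjusted p = 0.0201). That call was lost without background correction (0.22) and in 5 more of the 16 alternatives, 3 of which dropped control array 1 or 3 or shEp400 array 2. Irf3, the factor that sensors activate directly, had 10.07, 10.13 and 9.90, against 10.23, 10.08 and 9.89 in control cells (log2 change -0.036, SE 0.17, adjusted p = 0.879). Its groups overlapped on this probe, and its sign turned with cyclic loess (0.12). A second probe was not called (log2 change -0.12). The last had 5.90, 6.27 and 6.03 in shEp400 cells, against 5.45, 5.84 and 5.64 in control cells. On it the groups were separate, and it was not called (log2 change 0.42, SE 0.19, adjusted p = 0.0931 over probes).

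The transcription complex of type I signalling was not called in either direction. Irf9, its DNA-binding subunit, had 7.15, 7.36 and 7.58 in shEp400 cells, against 7.33, 7.48 and 7.18 in control cells (log2 change 0.032, SE 0.18, adjusted p = 0.901). Its second probe was not called either (log2 change -0.57, SE 0.22, adjusted p = 0.0557 over probes). Stat2, its partner, had 7.22, 7.10 and 6.90, against 6.70, 6.93 and 6.25 in control cells (log2 change 0.45, SE 0.21, adjusted p = 0.104), and of the 17 alternatives it was called higher in cyclic loess only. Parp14, an ADP-ribosyltransferase, was not called (log2 change 0.092, SE 0.22, adjusted p = 0.762).

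Isg15 and the protease that removes it, Usp18, both rose. Isg15, the ubiquitin-like modifier, had 6.79, 7.65 and 7.32 on the shEp400 arrays, against 4.94, 5.51 and 5.56 on the control arrays. Every shEp400 value lay more than 1 unit above the highest control value, and the rise was 3.77-fold (log2 change 1.92, SE 0.25, adjusted p = 0.000333). The Isg15 probe was detected on 2 of 3 control arrays, and without background correction its log2 change was 0.88. Usp18, the protease that removes Isg15 and also dampens the type I receptor, had 7.85, 8.51 and 8.11, against 6.73, 6.88 and 6.01 in control cells. The groups were separate and the rise was 3.06-fold (log2 change 1.62, SE 0.26, adjusted p = 0.000955). A second Usp18 probe was detected on 3 shEp400 arrays and 0 control arrays, so it passed the filter only through its shEp400 arrays. It was at least 1.33-fold higher. The adjusted p of 0.00742 over probes belongs to its fitted log2 change of 0.93, which takes control values at background, and not to that bound. From the other pathway genes, the activating enzyme Uba7 rose 2.12-fold and the conjugating enzyme Ube2l6 1.60-fold, both named here after their values were seen. Their probes were detected on 2 and 1 of 3 control arrays. Ifi35 had 6.22, 6.45 and 6.77, against 5.58, 4.87 and 5.33 in control cells, a 2.33-fold rise with separate groups (log2 change 1.22, SE 0.22, adjusted p = 0.00202). The Ifi35 probe was detected on 2 of 3 control arrays, and without background correction its log2 change was 0.47.

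The antiviral effectors and other induced genes included the steepest rise and the single fall. Of 14 listed, 9 were measured, 4 were called higher (Phf11a, Ifi27, Ifit3 and Rsad2), 1 lower (Ifitm2) and 4 were not called. Over all tested genes the shares were 20.6% higher and 23.1% lower. Their median differences were 0.61, 1.26 and 0.78 on shEp400 arrays 1, 2 and 3, beside feeder medians of 1.58, 1.93 and 2.11. Phf11a, a PHD finger protein, had 9.11, 8.81 and 8.64 in shEp400 cells, against 6.07, 4.77 and 6.08 in control cells. The groups were separate and the rise was 9.28-fold (log2 change 3.21, SE 0.33, adjusted p = 0.000104). That probe was detected on 2 of 3 control arrays, and without background correction the log2 change was 1.94. The second tested probe, detected on 3 of 3 control arrays, rose 8.07-fold. Phf11a has close copies, of which Phf11d, also measured and named after its values were seen, was not called (log2 change -0.55, SE 0.21, adjusted p = 0.0535).

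Ifi27, a small mitochondrial protein, had 11.06, 11.30 and 11.19 on the shEp400 arrays, against 9.72, 10.42 and 9.36 on the control arrays. The shEp400 values were tight and above control, a 2.55-fold rise (log2 change 1.35, SE 0.25, adjusted p = 0.00217). Its second probe, for another transcript accession, rose 2.23-fold with groups that overlapped. Ifit3, of the family that binds foreign RNA, had 6.51, 7.32 and 6.75, against 6.13, 5.49 and 5.78 in control cells. The groups were separate and the rise was 2.08-fold (log2 change 1.06, SE 0.24, adjusted p = 0.00618). Its relative Ifit2 had 6.33, 6.33 and 6.05, against 5.83, 5.97 and 5.34 in control cells. These values did not overlap, yet Ifit2 was not called (log2 change 0.52, SE 0.20, adjusted p = 0.0573). It passed in 4 of 17 alternatives (cyclic loess, probes detected on all 6 arrays, and control array 2 or shEp400 array 3 dropped) and missed the threshold in 13. Its second tested probe overlapped between groups and was not called (log2 change -0.15, SE 0.26, adjusted p = 0.67 over probes), and the mean of both probes gave 0.19 (adjusted p = 0.493). Ifit1, also a neighbour, was above background on no array (lowest detection p 0.0539).

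Rsad2, viperin, which makes a chain-terminating nucleotide, had 5.46, 6.20 and 5.42 in shEp400 cells, against 4.69, 4.71 and 4.52 in control cells. Its probe was detected on all 3 shEp400 arrays and on no control array. The change has only a bound, at least 1.47-fold higher on the background-corrected scale. Without background correction its log2 change was 0.34, which is below that bound. The adjusted p of 0.00406 belongs to its fitted log2 change of 1.06, which takes control values at background, and not to that bound. Bst2, tetherin, which holds budding virus at the membrane, had 6.38, 8.39 and 8.56, against 6.72, 6.98 and 7.69 in control cells. Array 1 of the shEp400 group lay below every control array while arrays 2 and 3 lay above, and the gene was not called (log2 change 0.64, SE 0.50, adjusted p = 0.323). With shEp400 array 1 left out its log2 change was 1.34 (adjusted p = 0.00394). Isg20, Xaf1 and Rtp4 were above background on no array.

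Of the Ifitm genes, 1 was called lower and 0 higher. These neighbouring genes encode small membrane proteins that block virus entry, and they are known to be expressed in pluripotent cells without interferon. Ifitm2 had 11.85, 12.05 and 11.77 in shEp400 cells, against 12.71, 12.77 and 12.44 in control cells. Every shEp400 value lay below every control value, a 1.68-fold fall (log2 change -0.75, SE 0.17, adjusted p = 0.00611), and the call held in all 17 alternatives. Ifitm3 had 12.14, 12.77 and 12.59, against 12.21, 12.30 and 12.14 in control cells, and was not called (log2 change 0.29, SE 0.19, adjusted p = 0.256; -0.043 with 75th percentile scaling).

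Ifitm1 had 4 tested probes, all assigned to 1 transcript accession, of which 2 were called lower. The probe that stands for the gene had 11.71, 12.06 and 12.28 on the shEp400 arrays, against 12.32, 12.22 and 12.10 on the control arrays, and was not called (log2 change -0.20, SE 0.19, adjusted p = 0.406). A second had 10.34, 10.15 and 9.69, against 12.28, 12.00 and 12.05 in control cells, a 4.14-fold fall with separate groups (log2 change -2.05, SE 0.20, adjusted p = 9.12e-05 over probes). Another had 4.62, 4.40 and 4.48, against 6.60, 5.50 and 6.15 in control cells. It was detected on 0 shEp400 arrays and on 3 control arrays, so it was at least 2.06-fold lower. The adjusted p of 0.000999 over probes belongs to its fitted log2 change of -1.58, which takes shEp400 values at background, and not to that bound. The last, detected on 1 shEp400 and 2 control arrays, had a log2 change of -0.27 (adjusted p = 0.347). With the mean of the detected probes Ifitm1 was called lower (log2 change -1.03, adjusted p = 0.00118).

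**Figure D3:**
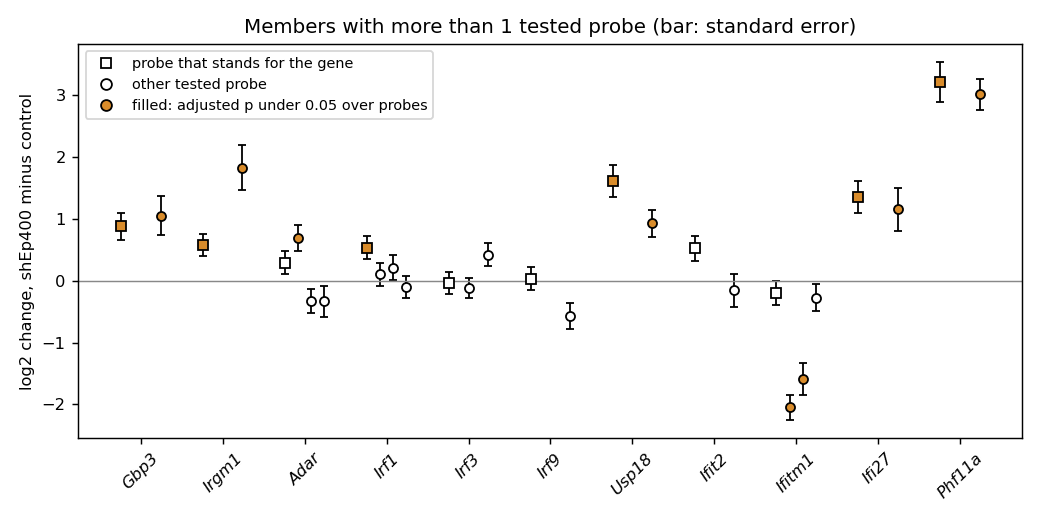
Log2 change (y axis, shEp400 minus control, bar for the standard error) of every tested probe of the 11 members with more than 1 such probe. Squares stand for the gene and filled symbols passed the test over 14238 probes. The 2 Phf11a probes lie together at 3.21 and 3.01, while the Ifitm1 probes spread between -0.20 and -2.05.

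Over all 45 tested probes of the members, 21 were called higher, 3 lower and 21 not, where 18.8% of all tested probes were called higher and 22.6% lower. The 3 called lower were the Ifitm2 probe and 2 probes of Ifitm1.

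The 11 members below the filter were each detected on at most 1 array. They were Gbp7, Iigp1, Mx1, Mx2, Ifih1, Ifi204, Oas1a, Ifit1, Isg20, Xaf1 and Rtp4, and 8 of them were detected on no array. The other 3 were detected on 1 array each. Their values ran between 4.19 and 5.24, and the median probe not detected lay at 4.44 to 4.45 on shEp400 arrays and 4.45 to 4.46 on control arrays. Differences between groups were not tested for them at this signal.

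**Figure D4:**
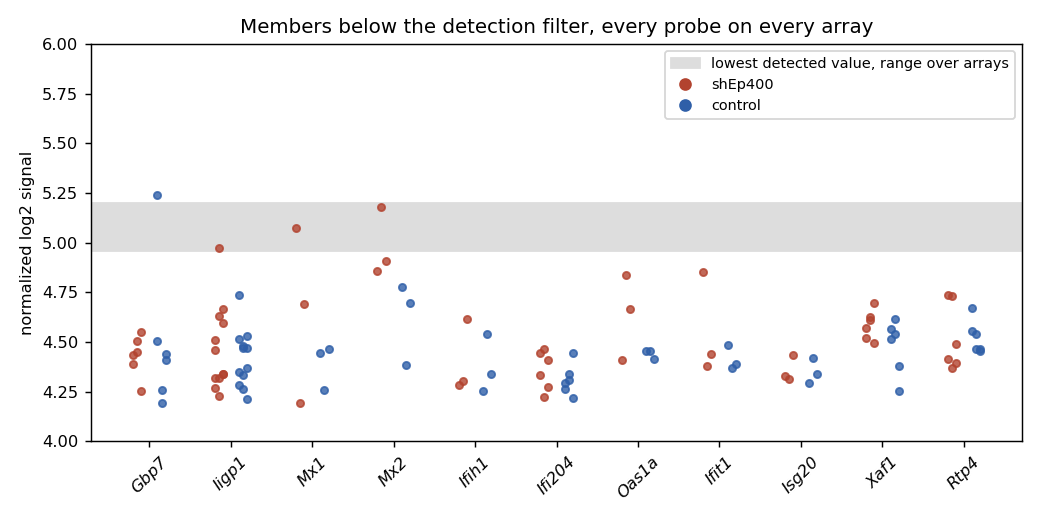
Normalized log2 signal (y axis) of every probe of the 11 members below the detection filter, on the 3 shEp400 arrays (red, left) and the 3 control arrays (blue). The grey band is the range, over arrays, of the lowest value among detected probes, 4.96 to 5.20. The highest point, 5.24, is Gbp7 on 1 control array.

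The rest of the pathway changed in both directions. Of 106 other pathway genes with a probe, 56 were measured, 18 were called higher, 9 lower and 29 not, with a median log2 change of 0.11. The 18 include Irf4, Gvin1 and Gbp2b, which were detected on no control array and so passed the filter through their shEp400 arrays. In a refit over probes detected on all 6 arrays, 11 of 43 of these pathway genes were called higher and 10 lower. Of all genes in that refit 20.1% and 26.4% were, and of its 21 members 10 were called higher and 1 lower. In the main fit, 20.6% of all tested genes were called higher and 23.1% lower. Among interferon ligands 2 of 10 were measured, and neither Ifna1 (log2 change 0.41, SE 0.23, adjusted p = 0.182) nor Ifnab (-0.35, SE 0.19, adjusted p = 0.165) was called. Ifnb1, the interferon beta gene, was not detected.

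Both chains of the interferon gamma receptor rose. Of 15 receptor and relay genes, 4 were higher and 4 lower, where 20.6% of all tested genes were called higher and 23.1% lower. Ifngr1 and Ifngr2, its chains, rose 2.76-fold (log2 change 1.47, SE 0.17, adjusted p = 0.000168) and 3.53-fold (1.82, SE 0.26, adjusted p = 0.00051). The Ifngr1 probe was detected on 2 of 3 control arrays, and without background correction its log2 change was 0.58. Ifngr2 had 9.31, 9.52 and 9.52 in shEp400 cells, against 7.05, 7.68 and 8.17 in control cells, and its groups were separate. Of the type I receptor, Ifnar1 was not detected and Ifnar2, detected on 3 of 6 arrays, was not called (log2 change 0.12, SE 0.26, adjusted p = 0.732). Jak2, the kinase of the gamma receptor, rose 2.05-fold and is named after its values were seen. Irf4, a lymphoid member of the Irf family, was not well above background in any control sample. It was at least 1.41-fold higher on the background-corrected scale. Without background correction its log2 change was 0.38, which is below that bound.

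The kinase Jak1, which serves both receptor types, fell 2.18-fold, with 8.19, 7.82 and 7.53 in shEp400 cells, against 8.98, 9.38 and 8.55 in control cells (log2 change -1.12, SE 0.24, adjusted p = 0.00464). The phosphatase Ptpn6 fell 2.05-fold, and the lambda receptor chain Ifnlr1 fell 1.74-fold, which failed the test with cyclic loess, with no filter, and when control array 1 or 2 or shEp400 array 3 was dropped. Tyk2, the kinase bound to Ifnar1, was not called (log2 change -0.40, SE 0.17, adjusted p = 0.0765), and passed in the 2 alternatives that used uncorrected or deposited matrix values. The list's median differences were 0.095, -0.022 and -0.16 on shEp400 arrays 1, 2 and 3.

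In the sensing relay 2 of 11 genes were higher and 1 lower, beside 20.6% and 23.1% of all tested genes. The nuclease Trex1, which removes DNA from the cytosol, rose 1.48-fold, and the adaptor Myd88 rose 1.46-fold. Trex1 failed the test when control array 1 or 2 or shEp400 array 3 was dropped. Myd88 failed it under 75th percentile scaling and when any array other than shEp400 array 1 was dropped. Aim2, a cytosolic DNA sensor, fell 2.21-fold (log2 change -1.15, SE 0.19, adjusted p = 0.00125). Mavs, the adaptor of RIG-I and MDA5, was not called (log2 change 0.33, SE 0.16, adjusted p = 0.109). The list's median differences were -0.066, -0.049 and 0.054 on shEp400 arrays 1, 2 and 3.

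Of 28 other interferon-stimulated genes measured, 12 were higher, 4 lower and 12 not called, where 20.6% of all tested genes were higher and 23.1% lower. Lgals3bp, a secreted glycoprotein, rose most, with 9.66, 10.45 and 10.61 in shEp400 cells, against 7.96, 7.66 and 7.42 in control cells (5.90-fold; log2 change 2.56, SE 0.26, adjusted p = 0.000102). The very large GTPase Gvin1, not well above background in any control sample, was at least 3.85-fold higher on the background-corrected scale. Without background correction its log2 change was 0.93, which is below that bound. Tdrd7 rose 2.75-fold. Apobec3, a deaminase that restricts retroviruses, had 6.71, 6.17 and 5.90, against 7.96, 8.36 and 8.23 in control cells. Its groups were separate and it fell 3.80-fold (log2 change -1.93, SE 0.23, adjusted p = 0.000188). Samhd1, which depletes nucleotides and limits retroviral copying, fell 1.96-fold. Oas2, a synthetase of the same family as Oasl2, fell 1.76-fold, which failed the test in the same 5 alternatives as Ifnlr1. The list's median differences were 0.26, 0.37 and 0.44 on shEp400 arrays 1, 2 and 3, beside feeder medians of 1.58, 1.93 and 2.11.

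**Figure D5:**
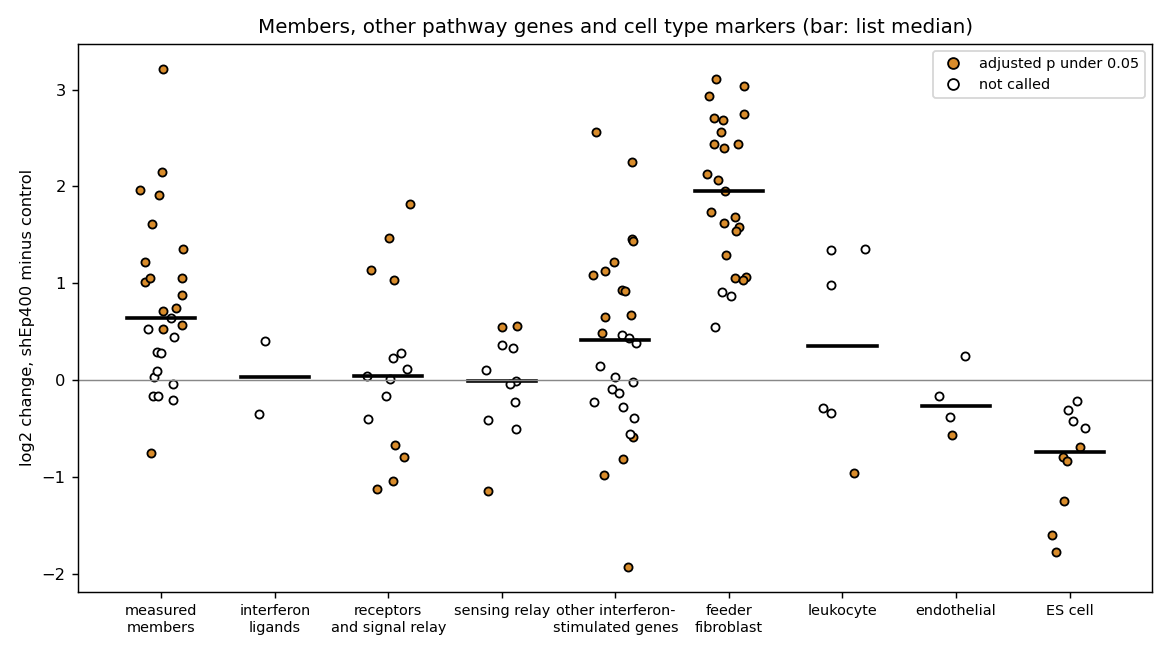
Log2 change (y axis, shEp400 minus control) of each measured gene of the members, the 4 lists of other pathway genes and 4 lists of cell type markers, with a bar at each list's median. Filled points passed the test at an adjusted p under 0.05. The members' median is 0.64 and that of the feeder fibroblast markers 1.95, while receptors and the sensing relay lie around 0.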

How the data were processed

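Total RNA of 6 samples was hybridised to 1 Illumina array each. The deposited signal intensities of 45281 probes are linear, not scaled between arrays and not background-subtracted (lowest 77.6), with a detection p-value per probe and array, per the file headers. The submitters' processing notes name GenomeStudio, with no version. A second deposited matrix of intensities kept each array's ranks (rank correlation 1), with medians of 114 throughout. It is linear and uncentred and served as an alternative.

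Groups came from the labels. Log2 values were computed with neqc (limma 3.58.1, R 4.3.3), with background from the detection p-values, an offset of 16 and quantile normalization. Probes with a detection p under 0.01 on 3 or more arrays were kept (14238 with a single symbol, of 34885; 18 had several symbols and 10378 none). Each gene took its probe with the highest mean, and 9736 genes were tested two-sided with lmFit and eBayes, without covariates (4 residual degrees of freedom), with Benjamini-Hochberg adjustment. Probes were also tested as features of their own ("over probes"). Where a group had no detected array, only a bound is given: on each such array the probe's value was raised to that of the dimmest detected probe if it lay lower, and the brighter group's mean was set against the mean of these. These bounds hold on the background-corrected scale only. Summed linear signals add 2 to the power of each normalized value. Precision is limited by the number of arrays. Only the limma fit was tested on simulated log2 values, and not the steps before it.

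Probes were named by the platform annotation, and the 38 Entrez IDs of the members all matched the RefSeq table by symbol. Coordinates are those of the RefSeq promoters, since the sources used here give no build for the probes. The members, the gene and marker lists and the settings were chosen with earlier results of these data known. Named genes are all members, Ep400, the 3 highest and 3 lowest called genes of each pathway list and a few fixed receptor and relay genes. Jak2, Uba7, Ube2l6, Phf11d and Gbp2b were named as well, after their values were seen. Alternatives changed background correction, normalization, filter, probe choice, source table and spread estimate, or left out 1 array.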

Additional observations from a re-analysis of the deposited data

How the results depend on the processing

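Of the 16 called members, 11 kept their call in each alternative that tested them, and Gbp3, Irgm1, Oasl2, Irf1 and Irf7 lost it in at least 1. The count called higher lay between 10 and 17 over 17 alternatives, and between 10 and 15 over the 6 fits that left out 1 array. The count called lower was 2 with 75th percentile scaling and with the mean of the detected probes, in both cases with Ifitm1 as the second gene, so effectors called lower were 2 there too. The count of sensors called higher was 0 with normexp without detection p-values, without background correction, with 75th percentile scaling, among probes detected on all 6 arrays, with no filter and with the deposited matrix, and 0 to 1 over the fits without 1 array. GTPases called higher numbered 2 to 4 over those fits. Regulators called higher numbered 3 among probes detected on all 6 arrays, where fewer genes are tested. Other pathway genes called higher numbered 11 among probes detected on all 6 arrays and 11 to 16 over the fits without 1 array. The members' median log2 change was 0.42 with normexp without detection p-values, 0.30 without background correction, 0.30 with the deposited matrix and 0.33 with no filter.

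Without background correction 12 of the 16 called members moved by over 1.5 times, and the deposited matrix moved 12 as well. Phf11a then had a log2 change of 1.94 without background correction, Gbp2 of 1.21 and Isg15 of 0.88. Signs turned for genes that were not called: Irf3 with cyclic loess (0.12), with the mean of the detected probes (0.088) and within -0.12 to 0.046 over the fits without 1 array, Irf9 with the mean of the detected probes (-0.27) and within -0.077 to 0.14, Ifitm3 with 75th percentile scaling (-0.043), Ifnar2 with 75th percentile scaling (-0.057) and within -0.15 to 0.27, and Parp14 within -0.11 to 0.25. The cause of these changes was not tested. Over all genes, the median change shifted by 0.11 with cyclic loess (2436 higher and 1667 lower, against 2005 and 2246 with quantile normalization) and by -0.11 with 75th percentile scaling (1771 and 2755). No paired analysis was possible because the labels carry no replicate numbers shared between groups. Probes near background limit Rsad2, Irf7 and Oasl2, and also Gbp3, Isg15, Ifi35 and Phf11a, each detected on 2 of 3 control arrays. Other pathway genes detected on fewer than 3 control arrays, such as Ifngr1, have the same limit. Groups of 3 arrays are too small for a test of outlying samples.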
